A study of Danio rerio with 12 samples.

Results

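BMP signalling was described through 10 genes of the pathway: the ligand genes bmp4 and bmp6, the type I receptor gene acvrl1, the type II receptor genes bmpr2a and bmpr2b, the receptor Smads smad1 and smad5, the inhibitory Smads smad6a and smad6b, and the target gene id1. They were taken by symbol from an RNA-seq table of 25011 genes. All 10 were present, each on 1 row and with whole-number counts, and all 10 passed the filter on low counts. Trunk cells positive for both mCherry and GFP were sorted at 36 hours post-fertilisation from zebrafish of the line Tg(kdrl:mCherry/runx1:en-GFP). They are labelled hemogenic endothelium, the aortic endothelium that gives rise to blood stem cells. In this line the kdrl promoter drives mCherry in endothelium and a runx1 enhancer drives GFP. The morphant group came from embryos injected with a morpholino, an antisense oligonucleotide, against dnmt3ba, a gene for an enzyme that methylates DNA de novo. The control group carried the same transgenes and is labelled WT, with no statement in the labels of any injection it received. Each library came from 5000 cells, and each group had 3 libraries. The labels state neither how many embryos were pooled nor whether the libraries of a group came from separate clutches, so the p-values measure the spread between these libraries, which may be technical.

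Bone morphogenetic proteins are secreted dimers that bring type I and type II receptor kinases together on the cell surface. The type II receptor activates the type I receptor, which phosphorylates Smad1, Smad5 and Smad9, and these enter the nucleus with Smad4 and switch on targets such as the Id genes. Smad6 is itself induced by the signal and inhibits it, which closes a feedback loop. In endothelium the type I receptor Acvrl1, also called Alk1, binds Bmp9 and Bmp10 with the co-receptor endoglin and restrains vessel growth, and BMP signals from the tissue below the aorta take part in the formation of blood stem cells in zebrafish.

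Total estimated counts lay between 24397076 and 25132656 per library. dnmt3ba itself had 405, 673 and 600 CPM (counts scaled to library size with the trimmed mean of M-values) in morphants 1, 2 and 3, against 499, 789 and 442 CPM in controls 1, 2 and 3. A morpholino need not lower the reads of its target, so these values do not check the labels. Among 18846 genes tested, edgeR's quasi-likelihood test called 10 higher and 2 lower in morphants at a Benjamini-Hochberg adjusted p under 0.05. Control 2 stood apart on the first principal component, at 118.3 against 14.3 and 12.0 in controls 1 and 3, and morphant 2, at -12.7, lay nearer to those controls than morphants 1 and 3 did, at -72.7 and -59.2. Results that rest on these libraries are therefore given with and without them. Leaving out morphant 2 for lying near controls can favour a difference between the groups, so fits without it are descriptions.

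The sorted cells expressed the labelled cell type's markers and those of other types. Endothelial markers, 14 genes, summed to 4049, 4350 and 4395 TPM (the deposited level per transcript length) in morphants 1 to 3 and to 2396, 2237 and 2903 TPM in controls 1 to 3. kdrl, whose promoter drives the mCherry used in the sort and which is named here after its values were seen, had 122.5, 22.8 and 118 TPM in morphants 1 to 3 and 21.2, 60.6 and 16.6 TPM in controls 1 to 3, so that morphant 2 lay among the controls and control 2 above morphant 2. The 8 haemogenic markers summed to between 679.9 and 757 TPM in morphants and to between 664 and 901 TPM in controls. Of these 8, 5 were lower in every morphant than in any control at an unadjusted p under 0.05 (runx1, myb, gfi1aa, tal1 and cbfb) and 1, lmo2, was higher, with a median log2 fold change of -0.52. Of all tested genes, every morphant lay below every control in 11.9% and above in 12.4%. At an unadjusted p under 0.05, 9.46% of all tested genes were lower and 7.58% higher. runx1 had 7.15 to 11.4 TPM in morphants and 13.7 to 33.0 TPM in controls, and lmo2, the most abundant of the list, 321 to 339 TPM in morphants and 189.9 to 236 TPM in controls. The 17 skeletal muscle markers summed to between 9746 and 22631 TPM in morphants and to between 14727 and 69363 TPM in controls. The 10 notochord or mesenchyme markers summed to between 70.0 and 638 TPM in morphants and to between 1214 and 2521 TPM in controls. The 11 erythroid markers summed to between 1955 and 7167 TPM in morphants and to between 8110 and 22659 TPM in controls. Epidermal markers summed to between 5390.3 and 6325 TPM in morphants and to between 5936 and 8038 TPM in controls. Over these 10 genes log2 fold changes ran from -3.02 to 1.61 (median -0.73), and that of krt18a.1, the most abundant, was -0.15. Neural markers summed to between 40.0 and 95.5 TPM in morphants and to between 86.9 and 132 TPM in controls. Myeloid markers, led by lyz, summed to between 8059 and 26632 TPM in morphants and to between 7329 and 23578 TPM in controls. No gene of the 8 lists was at 0 in all libraries. Each library thus held RNA of several cell types, and in such bulk samples fewer cells of a type and less RNA per cell cannot be told apart.

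**Figure D1:**
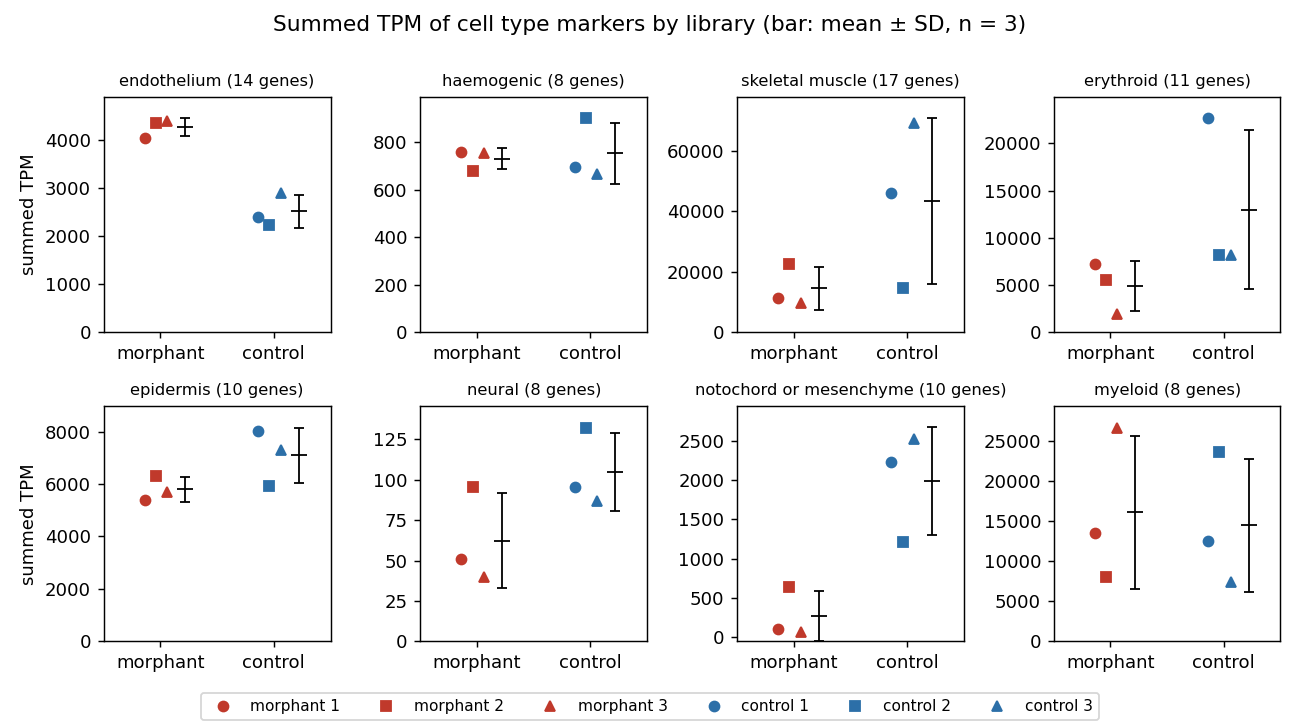
Summed TPM (vertical axes) of 8 lists of cell type markers in each library, with morphants in red on the left, controls in blue on the right and a black bar for the mean ± SD (n = 3). Endothelial markers sum to at least 4049 TPM in every morphant and to at most 2903 TPM in every control, while skeletal muscle markers reach 69363 TPM in control 3 and 14727 TPM in control 2.

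Of the ligand genes, bmp6 was higher in every morphant than in any control, and bmp4 overlapped between the groups. bmp6 (gene ID 503761), a ligand that vessel walls secrete in mammals, had 37.6, 33.6 and 36.2 CPM in morphants 1, 2 and 3, against 18.7, 16.7 and 19.8 CPM in controls 1, 2 and 3. Every morphant lay above every control, and the replicates of each group lay close together. The group means were 35.8 ± 2.07 CPM in morphants and 18.4 ± 1.59 CPM in controls (SD, n = 3). On the log2 scale the difference was 0.96 (SE 0.18). This did not pass over all genes by edgeR's quasi-likelihood test (unadjusted p = 0.00083, adjusted p = 0.11).

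bmp4 (30612), the ligand expressed below the dorsal aorta in zebrafish, had 11.7, 24.7 and 11.5 CPM in morphants 1 to 3, against 7.63, 12.4 and 11.1 CPM in controls 1 to 3. Morphant 2 stood far above all other libraries, and morphants 1 and 3 lay among the controls. Its log2 fold change was 0.62 (SE 0.37, edgeR adjusted p = 0.43). Without morphant 2 it was 0.16. The 95% interval of the difference ran from -0.25 to 1.49 on the log2 scale.

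The type I receptor gene was higher in every morphant than in any control, and the type II receptor genes overlapped between the groups. acvrl1 (266753) had 125, 121 and 117 CPM in morphants 1, 2 and 3, against 53.1, 42.4 and 69.1 CPM in controls 1, 2 and 3. The morphants were nearly equal, and the highest control, control 3, was well below the lowest morphant. The means were 121 ± 4.13 CPM in morphants and 54.9 ± 13.4 CPM in controls (SD, n = 3). This gave a log2 fold change of 1.14 (SE 0.21) and a 95% interval from 0.66 to 1.63, which edgeR did not call over all genes (unadjusted p = 0.0007, adjusted p = 0.11).

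bmpr2a (562822) and bmpr2b (555655) encode the type II receptors that partner it. bmpr2a had 12.5, 15.0 and 16.1 CPM in morphants 1 to 3, against 17.0, 10.8 and 12.8 CPM in controls 1 to 3. bmpr2b had 17.9, 28.6 and 18.5 CPM in morphants 1 to 3, against 22.1, 21.0 and 24.3 CPM in controls 1 to 3. The groups overlapped for both, and morphant 2 was the highest library for bmpr2b. The log2 fold changes were 0.10 for bmpr2a, with a 95% interval from -0.50 to 0.70, and -0.05 for bmpr2b, with an interval from -0.62 to 0.51 (edgeR adjusted p = 0.87 and 0.93). Both directions turned when single libraries were left out.

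Both receptor Smads, the transcription factors that carry the signal, were higher in each morphant than in any control. smad5 (30641) had 163, 168 and 142 CPM in morphants 1, 2 and 3, against 99.4, 70.2 and 95.4 CPM in controls 1, 2 and 3. smad5 thus had a log2 fold change of 0.84 (SE 0.19, edgeR unadjusted p = 0.0026, adjusted p = 0.14). smad1 (30628) had 82.8, 85.1 and 69.3 CPM in morphants 1 to 3, against 45.2, 53.0 and 54.4 CPM in controls 1 to 3. The log2 fold change of smad1 was 0.64 (SE 0.17, edgeR unadjusted p = 0.0065, adjusted p = 0.17). On the TPM scale the gap for smad1 was narrow, since control 2 had 43.0 TPM and morphant 3 had 44.8 TPM.

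Summed with the remaining receptor Smad, smad9, these genes had 163, 185 and 143 TPM in morphants 1 to 3 and 90.3, 101 and 98.4 TPM in controls 1 to 3. smad5 made up 54.5 to 57.5% of that sum in morphants and 50.6 to 56.2% in controls, so it was the most abundant of the 3 in every library. The log2 ratio of smad1 to smad5 within a library was -0.79, -0.79 and -0.81 in morphants and -1.0, -0.25 and -0.57 in controls. The difference of the mean ratio, -0.19, lay inside the spread of the controls (exact two-sided permutation test, p = 0.4, adjusted p = 0.6 over 3 paralogue ratios, where the smallest p that 3 against 3 libraries allow is 0.1).

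The inhibitory Smads bind activated receptors and block the receptor Smads. smad6b (564395) had 48.1, 35.9 and 47.5 CPM in morphants 1, 2 and 3, against 16.0, 17.4 and 23.9 CPM in controls 1, 2 and 3. The lowest morphant, morphant 2, was above the highest control. Its log2 fold change, 1.2 (SE 0.23), was the largest of the 10 genes in this fit (edgeR unadjusted p = 0.001, adjusted p = 0.12).

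Its paralogue smad6a (116992) had 47.3, 41.6 and 39.5 CPM in morphants 1 to 3, against 10.5, 34.4 and 31.0 CPM in controls 1 to 3. Here control 1 alone was low, at less than the other controls by a wide margin, and controls 2 and 3 came close to the morphants. On the TPM scale the groups overlapped, with 25.4, 23.3 and 20.2 TPM in morphants and 5.0, 23.3 and 15.2 TPM in controls. Its log2 fold change was 0.76 (SE 0.40, edgeR adjusted p = 0.38), and without control 1 it was 0.39. Without control 2 it was 1.04 (edgeR unadjusted p = 0.043, adjusted p = 0.26), and without control 2 and morphant 2 it was 1.06. The log2 ratio of smad6a to smad6b averaged -0.09 ± 0.24 in morphants and 0.19 ± 0.80 in controls (SD, n = 3; exact permutation p = 0.6), and that of bmpr2a to bmpr2b -1.18 ± 0.41 in morphants and -1.43 ± 0.28 in controls (exact permutation p = 0.6). The difference of the smad6a to smad6b ratio, -0.28, became 0.09 without control 2.

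id1 (30493), a direct target that encodes an inhibitor of basic helix-loop-helix factors, overlapped between the groups. It had 175, 132 and 138 CPM in morphants 1, 2 and 3, against 144, 96.1 and 283 CPM in controls 1, 2 and 3. Control 3 was the highest of all libraries and control 2 the lowest, with the 3 morphants between them. For id1 the log2 fold change was -0.23 (SE 0.37), with a 95% interval from -1.10 to 0.64 (edgeR adjusted p = 0.78). Without control 3 it was 0.31. Across the 6 libraries the gene whose log2 CPM ran most like that of id1, among 12194 tested genes that averaged 5 CPM or more, was ebf1a (Pearson's r = 0.979), followed by aurkb, mrpl41, si:ch211-14a17.11 and polr2f (r = 0.958 or above). For smad6a it was b3glcta (r = 0.996), followed by atrip, wbp1la, LOC100332446 and osgep (r = 0.987 or above). Control 3 was the highest library for each gene listed with id1, as for id1 itself. Control 1 was the lowest for each gene listed with smad6a, as for smad6a itself. These correlations can therefore rest on a single library, and they are descriptions of 6 points that share library and group.

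**Figure D2:**
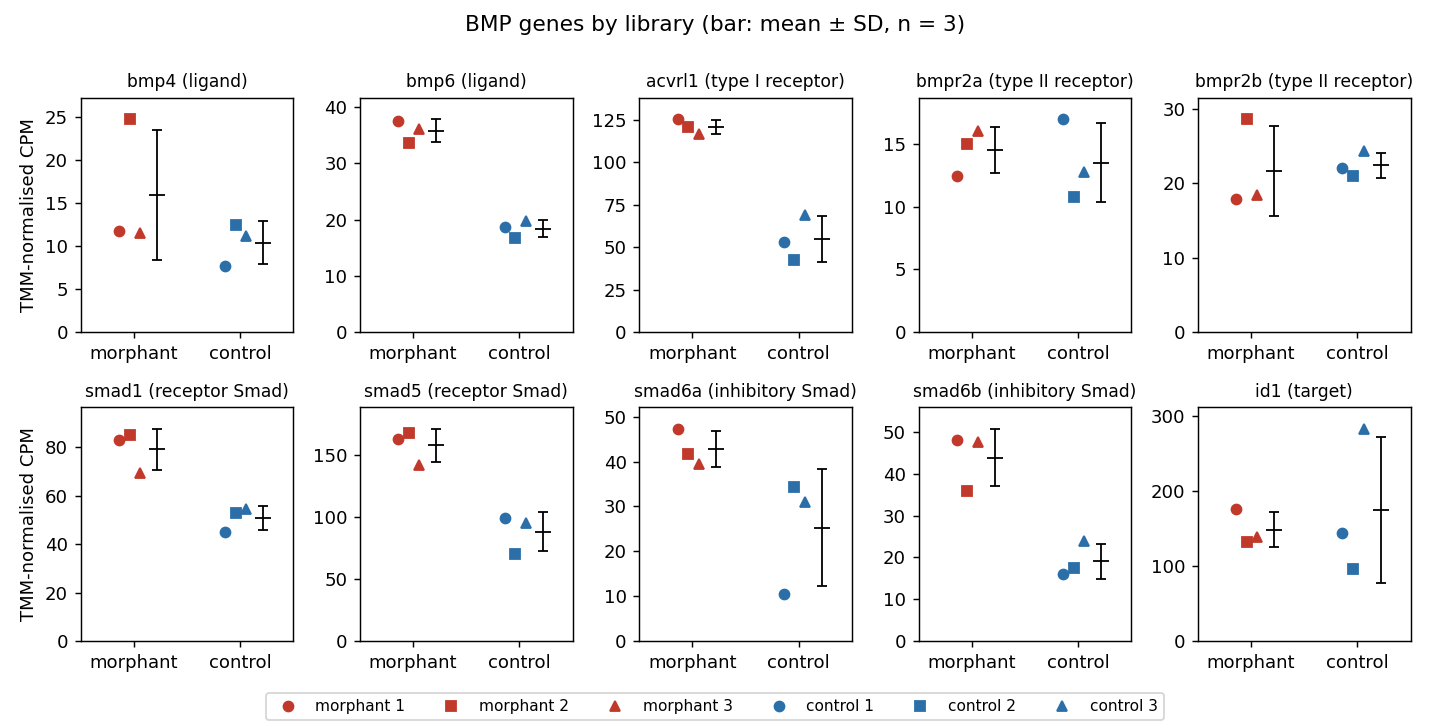
CPM (vertical axes, each from 0) of the 10 BMP genes in each library, with morphants in red on the left, controls in blue on the right and a black bar for the mean ± SD (n = 3). The groups are apart for bmp6, acvrl1, smad1, smad5, smad6a and smad6b, and they overlap for bmp4, bmpr2a, bmpr2b and id1.

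Over the 10 genes, 0 were called higher and 0 lower by edgeR over all genes, where 0.0531% of tested genes were called higher, 0.0106% lower and 0.0637% in either direction. At an unadjusted p under 0.05, 5 of the 10 were higher in morphants (acvrl1, bmp6, smad1, smad5 and smad6b) and 0 lower, beside 7.58% of all tested genes higher and 9.46% lower. In 6 of the 10, those 5 and smad6a, every morphant lay above every control in CPM, beside 12.4% of all tested genes, and in 0 of the 10 every morphant lay below every control, beside 11.9%. DESeq2, tried as another tool, called the same 5 genes higher, at adjusted p from 0.00023 for bmp6 to 0.034 for smad1, and it called 3.5% of the genes with an adjusted p higher. Without control 2 and morphant 2, edgeR called acvrl1, bmp6 and smad6b higher (adjusted p = 0.03, 0.037 and 0.031), where 2.56% of tested genes were called higher. Those libraries were left out for their place on the first principal component, so this fit is not independent of the group difference. The median log2 fold change was 0.70 over the 10 genes and -0.04 over all tested genes. The 10 genes were chosen with earlier results of these data known, so these contrasts with all genes are descriptions.

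The levels, compared per transcript length in TPM, placed id1 first in both groups, at 242 ± 38.5 TPM in morphants and 277 ± 125 TPM in controls (SD, n = 3). smad5 came second in both, at 90.9 ± 11.4 TPM in morphants and 50.6 ± 0.609 TPM in controls. acvrl1 came next in morphants, at 67.9 ± 4.47 TPM and above the range of smad1, and just behind smad1 in controls, at 30.4 ± 4.53 TPM, where the ranges of both overlapped. smad6b, smad6a and bmp6 followed in morphants at 24.5, 23.0 and 22 TPM, with overlapping ranges between neighbours, and in controls they lay at 10.8, 14.5 and 11.4 TPM, again overlapping. bmp4 and bmpr2b overlapped in both groups, at 7.74 and 7.54 TPM in morphants and 5.19 and 7.85 TPM in controls. bmpr2a was the lowest, at 3.24 ± 0.378 TPM in morphants and 2.90 ± 0.271 TPM in controls.

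Because summed endothelial markers were also higher in morphants, the BMP genes were set against the endothelial markers within each library. This comparison was chosen after seeing the data. Of the 14 markers, 8 were higher in every morphant than in any control, beside 12.4% of all tested genes. At an unadjusted p under 0.05 by edgeR, 7 were higher and 0 lower, beside 7.58% and 9.46% of all tested genes. Their edgeR log2 fold changes ran from -0.09 for kdr to 1.66 for kdrl, with a median of 0.62 and 13 positive. The mean log2 CPM of the 14 endothelial markers was 8.29, 8.24 and 8.38 in morphants 1 to 3 and 7.68, 7.30 and 7.82 in controls 1 to 3. This scale takes their difference of 0.70 off every gene's difference in mean log2 CPM, which is another estimate than the edgeR log2 fold change. A gene with a log2 fold change near 0 therefore comes out at about that much below 0, and over all tested genes every morphant lay above every control in 1.48% and below every control in 45.8%. Relative to that mean, acvrl1 was higher by 0.47, smad6b by 0.50 and bmp6 by 0.26 in morphants on the log2 scale, and for these 3 genes the groups did not overlap. Single endothelial markers differed by similar amounts. The edgeR log2 fold changes were 1.11 for etsrp and 0.97 for clec14a, against 1.14 for acvrl1, 1.2 for smad6b and 0.96 for bmp6. smad5 (0.15), smad6a (0.22), bmp4 (-0.15) and smad1 (-0.07) overlapped between groups relative to the endothelial mean. bmpr2a (-0.58), bmpr2b (-0.78) and id1 (-0.80) lay below every control in each morphant, as the scale itself gives for genes that differed little in CPM. Marker lists of muscle and erythroid cells had median log2 fold changes of -1.82 and -1.73 between the same libraries. There 17 of 17 and 11 of 11 genes were negative, beside 9872 of all 18846 tested genes. Every morphant lay below every control in 2 of those 17 and 4 of those 11 genes, beside 11.9% of all tested genes. The medians were -1.82 for notochord or mesenchyme, -1.13 for neural, -0.73 for epidermal, -0.52 for haemogenic and 0.19 for myeloid markers. The part of these lists in the results was not tested.

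**Figure D3:**
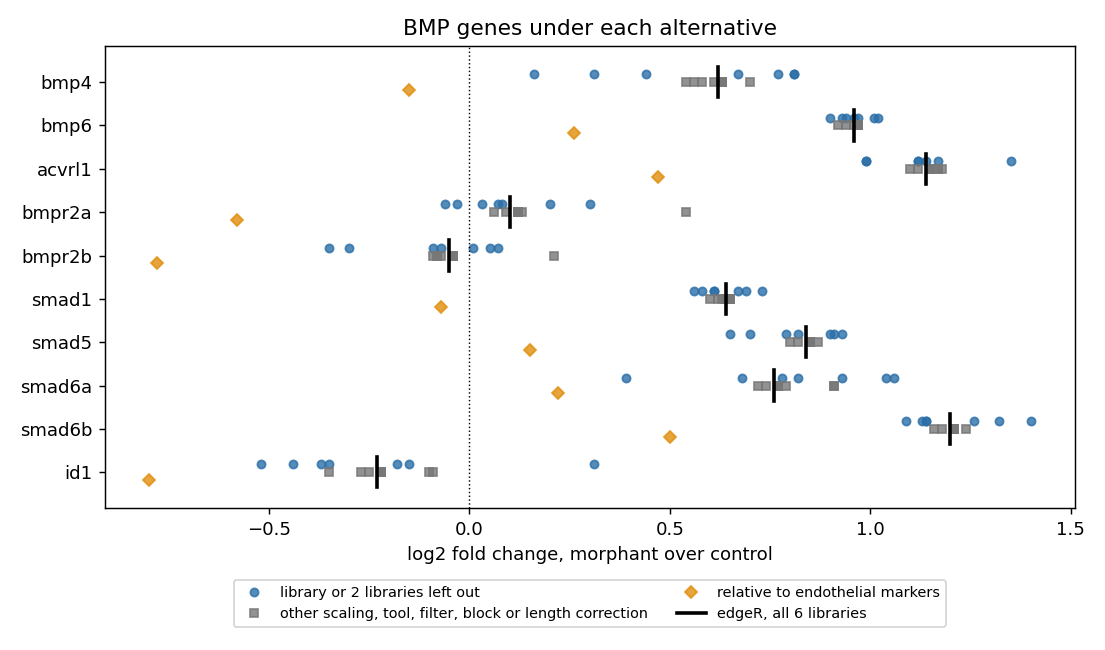
log2 fold change, morphant over control (horizontal axis), of the 10 BMP genes in edgeR with all 6 libraries (black line), with a library or 2 libraries left out (blue), under another scaling, tool, filter, block or length correction (grey) and relative to endothelial markers (orange). acvrl1, bmp6, smad5, smad6a and smad6b stay to the right of 0 under each, and id1 moves to 0.31 without control 3.

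Beyond the 10 genes, 75 others of the pathway were listed by role. The table held 71 of them and 59 were tested. Of these 59, edgeR called 0 higher and 0 lower over all genes. At an unadjusted p under 0.05, 5 were higher and 9 lower in morphants, with 45 that did not pass, beside 7.58% of all tested genes higher and 9.46% lower. The median log2 fold change was -0.06. DESeq2 called 3 higher (sost, bmp16 and hamp) and 1 lower (LOC100332721). Of all genes to which DESeq2 gave an adjusted p, it called 3.5% higher and 3.71% lower, and not all of the 59 had one. Without control 2 and morphant 2, edgeR tested 61 of the listed genes and called 2 higher, sost and hamp, and 9 lower, beside 2.56% of all genes higher and 4.54% lower. The 9 included bmpr1ba (log2 fold change -3.94, adjusted p = 0.0032), nog2 (-2.98, 0.0043), fstl1a (-1.97, 0.0098), LOC100332721 (-2.61, 0.0094) and id3 (-0.70, 0.046). With all 6 libraries their log2 fold changes were -2.11, -1.95, -1.16, -2.04 and -0.51, at edgeR adjusted p from 0.13 to 0.29. For each gene named here control 2 was the lowest control and morphant 2 the highest morphant. Leaving both out thus widened the gap between the groups.

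Among 7 tested ligand genes, bmp16, a fish relative of bmp2 and bmp4, had 68.8, 86.7 and 55.1 CPM in morphants 1 to 3, against 21.9, 29.2 and 35.5 CPM in controls 1 to 3. Every morphant was above every control, with a log2 fold change of 1.28 (SE 0.25, edgeR unadjusted p = 0.0011, adjusted p = 0.12). It held 44.6 to 50.6% of the summed TPM of all BMP ligand genes listed in morphants and 21.8 to 33.7% in controls, and bmp6 held 15.9 to 23.8% in morphants and 14.5 to 15.7% in controls. bmp3, an atypical member that opposes BMP signals in mammalian bone, had 19.5, 23.8 and 13.2 CPM in morphants 1 to 3, against 29.9, 28.6 and 38.5 CPM in controls 1 to 3 (log2 fold change -0.78, edgeR adjusted p = 0.22).

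Of 10 other receptor genes tested, 1 was higher and 3 lower at an unadjusted p under 0.05, beside 7.58% of all tested genes higher and 9.46% lower. acvr2aa, a type II receptor shared with activins, averaged 61.0 ± 4.27 CPM in morphants and 41.4 ± 5.08 CPM in controls. The type I receptor gene bmpr1aa averaged 8.57 ± 2.36 CPM in morphants and 15.1 ± 2.43 CPM in controls. bmpr1ba, another type I receptor gene, averaged 5.10 ± 5.48 CPM in morphants and 22.1 ± 15.0 CPM in controls, where control 2, at 6.06 CPM, lay among the morphants. LOC100331938, which the RefSeq gene table names acvr2bb, averaged 3.26 ± 1.15 CPM in morphants and 6.45 ± 1.31 CPM in controls. Their edgeR adjusted p lay between 0.20 and 0.29. The most abundant of these 10, the activin type I receptor gene acvr1ba, averaged 66.3 ± 10.2 CPM in morphants and 86.9 ± 22.2 CPM in controls.

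Of 7 co-receptor genes tested, 0 were higher and 1 lower at an unadjusted p under 0.05, beside 7.58% and 9.46% of all tested genes. Log2 fold changes were negative in 6 of the 7 (median -0.89), beside 9872 of all 18846 tested genes. The positive one, eng, the endoglin gene that works with acvrl1 in endothelium, had 180, 390 and 308 CPM in morphants 1 to 3, against 225, 118 and 262 CPM in controls 1 to 3. The groups overlapped (log2 fold change 0.54, SE 0.37, edgeR adjusted p = 0.49), and without control 2 and morphant 2 the log2 fold change was 0.00. LOC100332721, named neo1b in the RefSeq gene table and encoding a neogenin, had 1.65, 3.64 and 1.57 CPM in morphants 1 to 3, against 9.01, 8.53 and 10.7 CPM in controls 1 to 3 (log2 fold change -2.04, edgeR adjusted p = 0.13). Of 6 Smads and Smad ubiquitin ligases tested, 0 had an unadjusted p under 0.05 in either direction, beside 7.58% of all tested genes higher and 9.46% lower. smad4a, the common partner and the highest of the 6 in TPM averaged over both groups, averaged 26.7 ± 3.71 CPM in morphants and 36.5 ± 8.44 CPM in controls.

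Of 16 tested genes of secreted or membrane antagonists, 1 was higher and 3 lower at an unadjusted p under 0.05. The shares of all tested genes were 7.58% higher and 9.46% lower. sost, which encodes sclerostin, a secreted inhibitor known mainly for blocking Wnt co-receptors, had 168, 184 and 174 CPM in morphants 1, 2 and 3, against 54.9, 39.8 and 72.7 CPM in controls 1, 2 and 3. The morphants lay close together, above every control. The difference was 1.65 on the log2 scale (SE 0.24, edgeR unadjusted p = 0.00015, adjusted p = 0.075). Without control 2 the log2 fold change was 1.46 (edgeR adjusted p = 0.039), in a fit that called 77 of 19462 genes, against 12 in the main fit. Over the 15 alternatives, each with its own test, the adjusted p of sost ran from 3.6e-07 by DESeq2 up to 0.36.

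Of the noggin genes, whose products bind BMP ligands, nog1 and nog3 were at low levels in both groups. nog2 averaged 3.14 ± 1.73 CPM in morphants and 12.1 ± 8.94 CPM in controls, where control 2, at 1.85 CPM, lay among the morphants. nog3 averaged 0.384 ± 0.320 CPM in morphants and 1.85 ± 0.269 CPM in controls. fstl1a, a follistatin-like gene, averaged 13.3 ± 7.09 CPM in morphants and 29.9 ± 13.5 CPM in controls, and its more abundant paralogue fstl1b 259.5 ± 24.5 CPM in morphants and 218 ± 11.5 CPM in controls. Of 3 protease genes listed (bmp1a, bmp1b and tll1), 0 had an unadjusted p under 0.05 in either direction. The shares of all tested genes were 7.58% higher and 9.46% lower. The most abundant protease gene, tll1, averaged 43.0 ± 11.8 CPM in morphants and 35.8 ± 8.37 CPM in controls.

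The other target genes differed in direction. hamp, the hepcidin gene that BMP signals switch on in liver, had 32.4, 11.3 and 29.4 CPM in morphants 1 to 3, against 9.23, 7.47 and 5.81 CPM in controls 1 to 3 (log2 fold change 1.70, SE 0.42, edgeR adjusted p = 0.16). atoh8, a target in mammalian endothelium, averaged 60.9 ± 13.2 CPM in morphants and 37.9 ± 13.1 CPM in controls (log2 fold change 0.68, edgeR adjusted p = 0.29), and without control 2 and morphant 2 its log2 fold change was 0.29. id3, a relative of id1 and the highest of the other targets by mean TPM in each group, had 62.0, 67.6 and 64.0 CPM in morphants 1 to 3, against 100.2, 70.2 and 105 CPM in controls 1 to 3. Each morphant was below each control for id3, by a small margin against control 2 (log2 fold change -0.51, edgeR adjusted p = 0.26). Of the 10 targets tested, 2 were higher and 1 lower at an unadjusted p under 0.05, beside 7.58% of all tested genes higher and 9.46% lower.

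**Figure D4:**
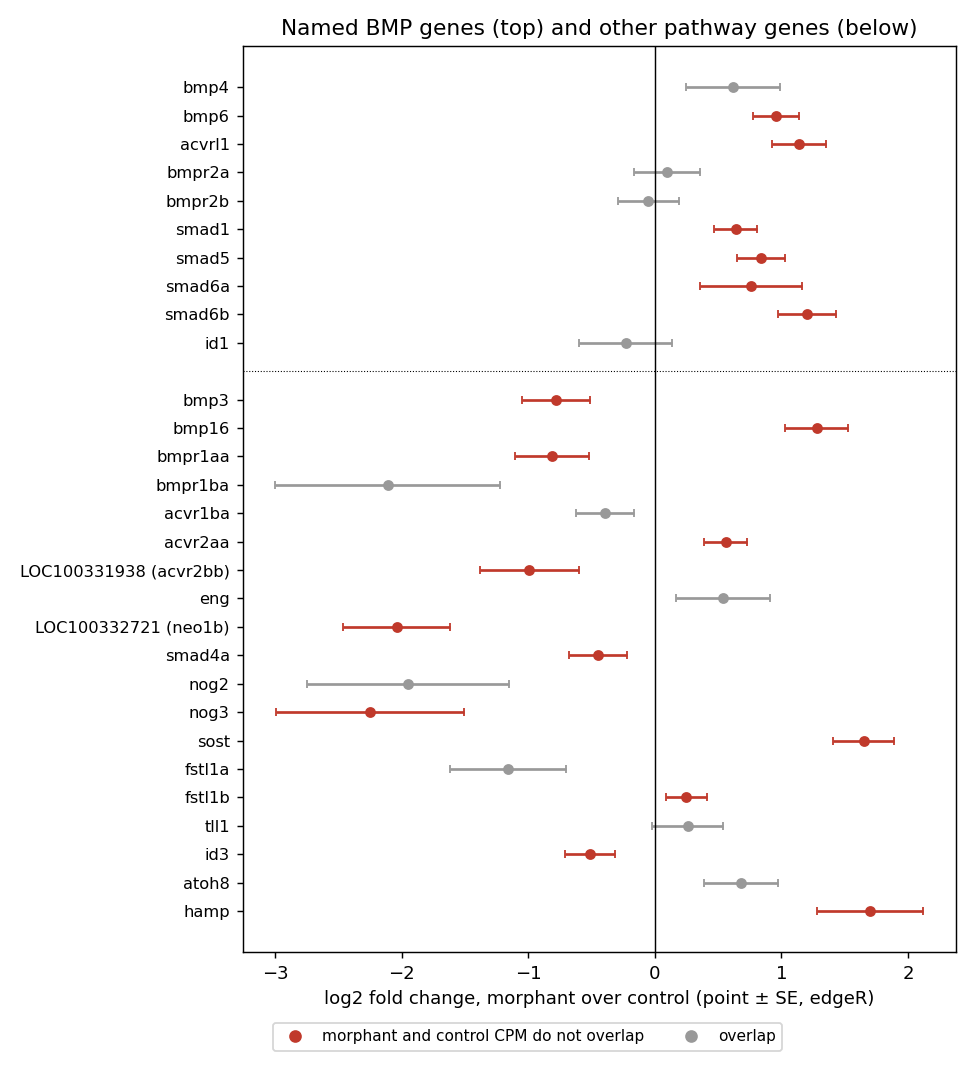
log2 fold change, morphant over control, with its SE (horizontal axis, edgeR with 3 libraries per group) of the 10 BMP genes above the dotted line and of the named genes of the wider pathway below it. Red points mark genes whose morphant and control CPM do not overlap, such as acvrl1 at 1.14 and sost at 1.65, and grey points those that overlap, such as id1 at -0.23.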

How the data were processed

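RNA-seq libraries of sorted cells (3 morphant, 3 control) were grouped by the genotype label, with replicate numbers as in the titles. The submitters' processing notes name the build GRCz11 and, without roles, DESeq2 1.30.1, HTSeq 0.12.4 and HISAT2 2.2.1, beside BS-Seeker2 2.1.8. They state neither the annotation nor the strand setting. Per the file headers the deposited table holds an estimated count, an FPKM and a TPM value per gene and library. Between 13.5 and 15.1% of counts per library were not whole, and they were rounded.

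Genes were kept by edgeR's filterByExpr and scaled by TMM. The test was the two-sided edgeR 4.0.16 quasi-likelihood F-test in R 4.3.3 with group as the only term and Benjamini-Hochberg adjustment over 18846 genes. SEs and 95% intervals come from the F statistic and its degrees of freedom. Alternatives used limma 3.58.1, DESeq2 1.42.0, other scalings and filters (any count; at least 5 CPM in 3 libraries), a replicate block, libraries left out and a loess gene-length correction (span 0.5) on lengths implied by the authors' counts and deposited FPKM. A comparison relative to endothelial markers (log2 CPM, prior count 2) was added after seeing the data. The scripts were tested on simulated data.

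The genes and lists were chosen with earlier results of these data known. Named pathway genes are those with an unadjusted p under 0.05 and the most abundant of each role by TPM averaged over both groups, and markers were fixed in lists. 3 listed pathway genes (acvr2bb, neo1b and smad4b) were matched by gene ID in a RefSeq table of GRCz12tu, used for names alone, and 4 (bmp10l, gdf2, admp and szl) were not matched. Methylation regions were not analysed here, and sequences are not used here.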

Additional observations from a re-analysis of the deposited data

How the results depend on the processing

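acvrl1, bmp6, smad1, smad5 and smad6b kept a positive log2 fold change and an unadjusted p under 0.05 in all 15 tested alternatives, with ranges of 0.99 to 1.35, 0.90 to 1.02, 0.56 to 0.73, 0.65 to 0.93 and 1.09 to 1.40. Their adjusted p depended on tool and library: 5 of the 10 genes passed by DESeq2, 3 without control 2 and morphant 2, and 0 whichever single library was left out. Of the other pathway genes, 4 passed by DESeq2, 1 without a filter, 1 with the gene-length correction, 11 without control 2 and morphant 2 (2 higher, 9 lower) and 0 to 1 when single libraries were left out (main value 0). At an unadjusted p under 0.05, those higher numbered 3 to 6 and those lower 2 to 16 when single libraries were left out, and 18 were lower without control 2 and morphant 2. The counts over all genes moved too, with 863 to 1543 higher and 855 to 1987 lower when single libraries were left out, of 19350 to 19525 tested. Without control 2 and morphant 2, 2668 of 19121 genes were lower.

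Over all genes, calls numbered 12 in the main test, 1226 by DESeq2, 37 without a filter, 41 with the gene-length correction, 1359 without control 2 and morphant 2 and 0 to 77 when single libraries were left out, with 77 without control 2 and 0 without morphant 1, morphant 3 or control 3. The cause was not tested. Same-numbered libraries did not deviate together (r = 0.03, -0.09 and -0.16). So few libraries cannot show whether the numbers mark pairs, and the labels do not state it. With a replicate block 0 genes were called, and 5 other pathway genes were lower at an unadjusted p under 0.05, beside 1253 of all 18846 genes.

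Directions turned for bmpr2a (-0.03 to 0.30 over single libraries left out, -0.03 without control 2, -0.06 without control 2 and morphant 2), bmpr2b (-0.30 to 0.07 over single libraries left out, 0.07 without morphant 1, 0.05 without morphant 3, 0.01 without control 3, 0.21 with the length correction), id1 (-0.52 to 0.31, with 0.31 without control 3), tll1 (-0.04 without control 2 and morphant 2) and dnmt3ba (-0.20 to 0.25, with 0.15 without morphant 1, 0.25 without control 2, 0.10 without both number 2 libraries, 0.34 with the length correction). With the length correction the log2 fold change of bmpr2a was 0.54 (edgeR adjusted p = 0.36), against 0.10 in the main fit. The paralogue ratios ranged over single libraries left out from 0.06 to 0.46 for bmpr2a/bmpr2b, -0.39 to -0.01 for smad1/smad5 and -0.70 to 0.09 for smad6a/smad6b. Setting genes against the endothelial markers takes 0.70 off every gene's difference in mean log2 CPM. That difference is another estimate than the edgeR log2 fold change of the main fit, so the 2 need not lie exactly 0.70 apart. On that scale bmpr2a, at 0.10 in the main fit, came to -0.58, as the scale gives for a gene that differed little. smad1 and bmp4, at 0.64 and 0.62 in the main fit, came to -0.07 and -0.15, so their differences did not exceed that of the endothelial mean.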
